A study of Mus musculus with 10 samples.

Results

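The enzymes that build and break down haem were examined in mouse liver through 9 genes, Alas1, Alas2, Alad, Uros, Urod, Cpox, Ppox, Fech and Hmox1. They were picked by name, and every probe set whose annotated symbol was one of these was taken, which gave 20 of the 45101 probe sets on the array. The samples were whole livers of 10 male B6C3F1/Crl mice (C57BL/6 male x C3H/He female), aged 29 to 32 days on receipt and given 5 days of acclimatisation. Phenobarbital at 0.05% (w/v) was in the drinking water of 5 mice for 28 days, and the other 5 were controls without it, all killed at the end of dosing. Phenobarbital, a sedative, is a non-genotoxic carcinogen of rodent liver, and the series title places the study among those on 5-hydroxymethylcytosine and such agents. Each liver was read on its own Affymetrix 3' array, and the deposited values are log2 expression levels.

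Haem is made in an ordered chain of enzymes that starts and ends in the mitochondrion and passes through the cytosol. The first enzyme, 5-aminolevulinate synthase, sets the pace, and its liver form Alas1 is repressed by haem itself and induced by drugs that raise cytochromes P450, which carry haem. Alas2 is the form of red cell precursors. Haem oxygenase 1, encoded by Hmox1, opens the haem ring and yields biliverdin, iron and carbon monoxide.

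The chain did not move as a unit. Alas1 rose 5.79-fold in treated livers (95% interval 3.22 to 10.4; n = 5 against 5), and Alas2 rose 1.30-fold. Cpox, coproporphyrinogen oxidase, fell on all of its 3 probe sets, with a log2 fold change of -0.57 on the brightest. Alad, Uros, Urod, Ppox, Fech and Hmox1 did not pass the test across all genes on their brightest probe sets. Thus 3 of the 9 genes were called, 2 higher and 1 lower, at an adjusted p under 0.05 (limma with Benjamini-Hochberg adjustment over 18193 genes). Over all genes 20.3% were called, 9.02% higher and 11.3% lower. Higher genes made up 44.4% of those calls as deposited, 60.0% after quantile normalisation (2307 of 3845) and 58.8% after median centring (2188 of 3720). The median log2 fold change of the 9 genes was 0.14 against 0.008 over all genes. The groups did not overlap in 2 of the 9, Alas1 and Cpox, where 12.9% of all genes did not overlap. Tested singly, 7 of the 20 probe sets were called, 4 higher and 3 lower, beside 18.7% of 45037 probe sets. In RNA from whole liver, fewer cells of a type and less RNA per cell cannot be told apart.

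Control replicate 4 stood apart from the other controls in several of these genes and in its spike-ins. The mean of 24 poly-A spike-in probe sets, bacterial RNAs added before labelling, reached 7.77 to 8.64 (log2) for control replicates 1, 2, 3 and 5. Control replicate 4, at 6.40, sat within the treated range of 5.76 to 6.58. The mean of 18 hybridisation control probe sets split the same way. It was 10.95 to 11.30 for control replicates 1, 2, 3 and 5, 10.65 for control replicate 4 and 10.54 to 10.74 in treated arrays. The array medians lay between 5.42 and 5.50. With the 4 arrays of high spike-ins and the 6 of low spike-ins entered as a block, the comparison is the treated mean minus control replicate 4. None of the 9 genes then passed limma, 1 had an unadjusted p under 0.05, and 0.786% of all genes were called. Without control replicate 4, 4 of the 9 genes passed, with Alad as the addition, beside 25.3% of all genes. The other members stayed uncalled without it, with log2 fold changes of -0.08 for Uros, -0.24 for Urod, 0.20 for Ppox, -0.03 for Fech and 0.26 for Hmox1 (limma adjusted p between 0.0565 and 0.768). In 6 of the 9 genes control replicate 4 was the control farthest in the direction of the fold change, or tied for it. That held in 36.5% of all genes and in 49.2% of the called genes. The part of the spike-in difference in these results was not tested. Cyp2b10, the classical target of phenobarbital in liver, was at 5.95 in control replicate 4, within the 5.62 to 7.07 of the other controls and far below the treated range of 13.45 to 13.56.

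**Figure D1:**
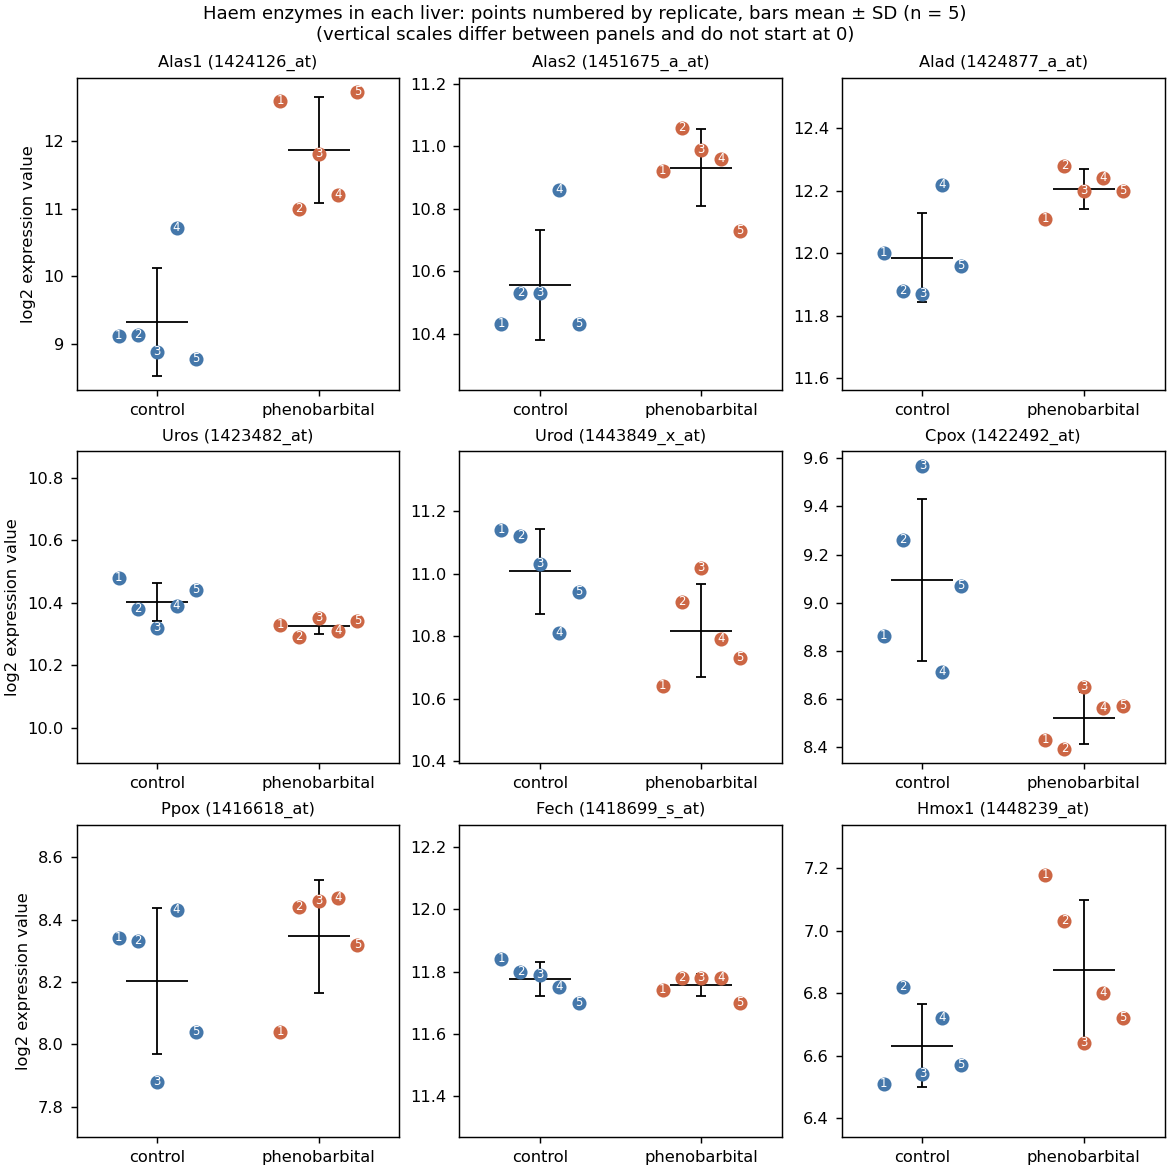
Log2 expression value (vertical axis, a separate range for each gene, not starting at 0) of the brightest probe set of each of the 9 genes in the 5 control and 5 phenobarbital livers. Points carry the replicate number and bars give the mean ± SD; Alas1 and Cpox show no overlap between groups, and control replicate 4 lies at 10.72 for Alas1 against 8.78 to 9.14 in the other controls.

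Alas1 makes 5-aminolevulinate from glycine and succinyl-CoA. On its brighter probe set, 1424126_at, the controls were at 9.12, 9.14, 8.88, 10.72 and 8.78 (replicates 1 to 5). The treated livers were at 12.59, 11, 11.80, 11.20 and 12.72. Every treated liver lay above every control, but control replicate 4 came close to treated replicate 2, while the other controls sat together. The means were 9.33 ± 0.79 and 11.86 ± 0.78 (SD, n = 5 each), a log2 fold change of 2.53 ± 0.39 (SE; by limma, adjusted p = 0.00155). Alas1 was among the most variable genes in both groups. Its SD exceeded that of 99.8% of the brighter genes (those above the median gene) in controls and of 99.6% in treated livers. Control replicate 4 was 1.74 above the mean of the other 4 controls, whose SD was 0.18, and this gap was larger in size than that of 99.9% of all genes. The log2 fold change was 2.88 without this animal (limma adjusted p = 0.000172) and 1.14 ± 0.51 (SE) with the spike-in sets as a block (adjusted p = 0.36). With the spike-in mean as a covariate it was 1.33 (adjusted p = 0.37).

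The second Alas1 probe set, 1455282_x_at, gave a second reading of the same RNA. Controls were at 6.89, 7.30, 7.03, 8.11 and 6.81, and treated livers at 9.73, 8.47, 9.18, 8.61 and 9.87. The treated animals came in the same order on both probe sets, with replicates 5 and 1 highest and replicates 4 and 2 lowest, and control replicate 4 was again the highest control. Tested singly, its log2 fold change was 1.94 ± 0.30 (SE; by limma, adjusted p = 0.00194), and the treated mean was 1.06 above control replicate 4. Its ending, _x_at, marks probes that can match other transcripts.

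The stretch around the outer RefSeq start of Alas1 is shown because Alas1 rose most of the 9. It runs from 250 bases before the start to 50 after it, at chr9:106247905-106248204 on the minus strand (GRCm38.p6), from the RefSeq promoter table. Capitals mark matches on either strand to GCGCANGCG, a core of the site of NRF-1, a factor of mitochondrial biogenesis; the motif overlaps itself when read on the other strand.

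Alas1: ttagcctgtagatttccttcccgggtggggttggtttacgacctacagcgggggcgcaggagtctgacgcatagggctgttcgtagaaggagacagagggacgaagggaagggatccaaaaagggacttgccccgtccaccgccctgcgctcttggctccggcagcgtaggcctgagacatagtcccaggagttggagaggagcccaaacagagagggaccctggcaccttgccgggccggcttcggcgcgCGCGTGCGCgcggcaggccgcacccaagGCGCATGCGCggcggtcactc

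It holds 3 such matches, starting 2, 30 and 31 bases from the start site (counted as 1), the last pair overlapping. The motif occurs in 6.2% of the 32851 promoter windows of the table. Nrf1, the gene of that factor, stood at 6.91 ± 0.12 in controls and 6.95 ± 0.07 in treated livers (SD, n = 5 each; limma adjusted p = 0.734). AGGTCA, a motif of nuclear receptors found in 16.3% of windows, had no match in this window. A match describes letters only, and the deposited values do not measure binding.

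Genes known to act on Alas1 were read from a list of 18, of which all were measured. None was higher and 4 were lower, with a median log2 fold change of -0.15. That is 22.2% called, near the 20.3% of all genes. Ppargc1a, a coactivator that raises Alas1 in fasting, was at 8.29, 8.83, 8.58, 7.77 and 7.89 in controls and 7.39, 6.73, 6.97, 6.56 and 6.61 in treated livers. All treated animals were below all controls, opposite in direction to Alas1, and the log2 fold change was -1.42 ± 0.20 (SE; by limma, adjusted p = 0.000959). Its relative Ppargc1b fell by 0.87, the insulin-regulated factor Foxo1 by 0.47 and the circadian factor Clock by 0.44 on the log2 scale. With the spike-in sets as a block the 4 log2 fold changes were -0.92 for Ppargc1a, -0.81 for Ppargc1b, -0.44 for Foxo1 and -0.23 for Clock, none passing limma, while Foxo1 was at -0.18 and not called when its probe sets were averaged, and at -0.19 on single-transcript probe sets, again not called. Without control replicate 4 these 4 genes were again called lower, with log2 fold changes from -1.55 for Ppargc1a to -0.48 for Foxo1. Nr1i3, which encodes CAR, the receptor that mediates the response to phenobarbital, differed by -0.26 ± 0.10 (log2) and Nr1i2, the pregnane X receptor, by 0.14 ± 0.08 (SE; limma adjusted p = 0.0771 and 0.219).

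The genes whose level followed Alas1 most closely over the 10 animals were Hspa4l, Phrf1, Rcan1, Unkl and Pdhx, with Pearson's r between 0.956 and 0.971 among 9094 brighter genes. These are a description chosen from the top of that ranking, and the points share the 2 treatment groups. Hspa4l, a relative of the heat shock protein Hsp70 family, was at 8.47 in control replicate 4 against 7.77 to 8.11 in the other controls and 8.43 to 8.99 in treated livers. Rcan1, a regulator of calcineurin, was at 8.95 in control replicate 4, against 8.07 to 8.27 in the other controls and 8.79 to 9.79 in treated livers. In both genes control replicate 4 lay within the treated range.

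Alas2, the synthase of red cell precursors, is read by a single probe set. Controls were at 10.43, 10.53, 10.53, 10.86 and 10.43, and treated livers at 10.92, 11.06, 10.99, 10.96 and 10.73. Of the treated livers 4 were above every control, and treated replicate 5 was below control replicate 4. The log2 fold change was 0.38 ± 0.09 (SE; by limma, adjusted p = 0.0135). It was 0.45 without control replicate 4 (adjusted p = 0.0018). With the spike-in sets as a block it was 0.07 (adjusted p = 0.85) and with the spike-in mean as a covariate 0.17 (adjusted p = 0.672).

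The region around the start of Alas2 (chrX:150547167-150547466, plus strand, GRCm38.p6, RefSeq) is shown beside its red cell role. Capitals mark GATAA on either strand, the core bound by the GATA factors of the blood lineage.

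Alas2: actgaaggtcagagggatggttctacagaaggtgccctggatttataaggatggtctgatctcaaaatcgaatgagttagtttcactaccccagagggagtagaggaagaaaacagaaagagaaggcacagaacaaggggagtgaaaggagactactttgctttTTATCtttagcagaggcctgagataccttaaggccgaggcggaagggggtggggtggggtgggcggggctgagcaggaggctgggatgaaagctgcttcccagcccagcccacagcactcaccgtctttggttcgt

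It has 1 match, whose first base lies at -86 from the start site, and 25.4% of all windows have at least 1.

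The red cell RNA was read beside Alas2. The adult globin genes are near-identical, and 4 probe sets are annotated jointly to several of them and cannot be split by gene. On 1417184_s_at, shared by the adult Hbb genes, controls were at 12.96, 12.86, 13.06, 13.09 and 13 and treated livers at 13.17, 13.43, 13.06, 13.41 and 13.30. Control replicate 4 was the highest control and treated replicate 3 the lowest treated liver. Of the 4 shared probe sets 3 were called higher, with log2 fold changes of 0.22 to 0.35 over the 4 (limma over probe sets, adjusted p between 0.0127 and 0.0688). The same number was called without control replicate 4 (0.24 to 0.40). With the spike-in sets as a block none was called, and the values were 0.16 to 0.22 (adjusted p between 0.517 and 0.762), against 0.07 for Alas2. Among treated animals replicate 2 was highest both on 1417184_s_at (13.43) and for Alas2 (11.06). Replicate 3 was lowest on 1417184_s_at and second highest for Alas2. Of the 13 measured members of the red cell marker list, read by probe sets of a single gene each, 1 was higher (Rhd, 0.36) and 1 lower (Klf1, -0.34). That is 15.4% called, beside 20.3% of all genes. The list's mean level was 5.04 to 5.16 in controls and 5.02 to 5.15 in treated livers, below all array medians (5.42 to 5.50). Its globin probe sets, for Hba-a1, Hba-a2 and Hbb-b2, had control means of 4.48, 4.96 and 6.98. Control means on the shared globin probe sets were 11.45 to 13.10, so the list reads little of the globin RNA. The defining factor Gata1 was at 4.75 ± 0.09 in controls and 4.81 ± 0.21 in treated livers (SD, n = 5 each). The part of red cell content in the Alas2 difference was not tested.

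**Figure D2:**
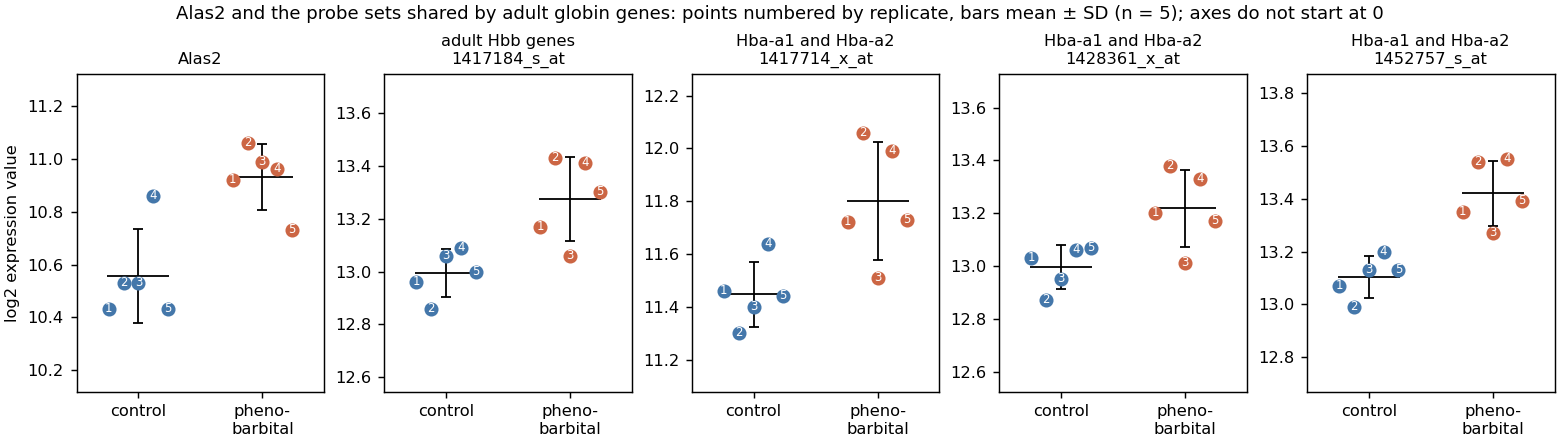
Log2 expression value (vertical axes, each spanning the same width and not starting at 0) of Alas2 and of the 4 probe sets shared by adult globin genes, in control and phenobarbital livers, with points numbered by replicate and bars giving the mean ± SD. The shift of Alas2 (0.38) and those of the shared globin probe sets (0.22 to 0.35) are of similar size, and control replicate 4 is the highest control on 4 of the 5 panels.

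Alad joins 2 molecules of 5-aminolevulinate into porphobilinogen, the next step. On its brighter probe set, 1424877_a_at, controls were at 12, 11.88, 11.87, 12.22 and 11.96 and treated livers at 12.11, 12.28, 12.20, 12.24 and 12.20. All treated livers were above controls 1, 2, 3 and 5, and control replicate 4 lay among them. The log2 fold change was 0.22 ± 0.07 (SE, 95% interval 0.06 to 0.38) and missed the threshold (limma adjusted p = 0.053). It passed without control replicate 4 (0.28, adjusted p = 0.00798) and was -0.01 with the spike-in sets as a block. The other probe set, 1457306_at, was dimmer, with controls at 7.93, 7.5, 7.72, 7.89 and 8.25 and treated livers at 8.22, 8.88, 8.55, 7.96 and 9.20. Tested singly it was called higher, with a log2 fold change of 0.70 ± 0.21 (SE; by limma, adjusted p = 0.0337), and there control replicate 4 lay among the other controls. With the spike-in sets as a block the value was 0.67 (adjusted p = 0.502).

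Uros and Urod carry out the cytosolic ring closure and decarboxylation. Uros, on 1423482_at, stood at 10.32 to 10.48 in controls and 10.29 to 10.35 in treated livers, a log2 fold change of -0.08 ± 0.06 (SE, 95% interval -0.199 to 0.0428; limma adjusted p = 0.341). Its dimmer probe set gave -0.06. Urod gave opposite signs on its probe sets. On 1443849_x_at, the brighter, controls were at 11.14, 11.12, 11.03, 10.81 and 10.94 and treated livers at 10.64, 10.91, 11.02, 10.79 and 10.73, a log2 fold change of -0.19 ± 0.09 (SE; by limma, adjusted p = 0.14). On 1417206_at the log2 fold change was 0.13 ± 0.07 (SE; by limma, adjusted p = 0.223 over probe sets). Neither reading passed. Control replicate 4 lay inside the treated range on the first and above every treated liver on the second. The interval for Urod, -0.38 to -0.0016 on the brighter probe set, does not show equal levels.

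Cpox, which oxidises coproporphyrinogen in the space between the mitochondrial membranes, was the called gene that fell. On the brightest probe set, 1422492_at, controls were at 8.86, 9.26, 9.57, 8.71 and 9.07 and treated livers at 8.43, 8.39, 8.65, 8.56 and 8.57. The groups did not overlap, though control replicate 4 was the lowest control and lay just above treated replicate 3. The means were 9.09 ± 0.34 and 8.52 ± 0.11 (SD, n = 5 each), and the log2 fold change was -0.57 ± 0.13 (SE; by limma, adjusted p = 0.0114). Without control replicate 4 it was -0.67 (adjusted p = 0.00289). With the spike-in sets as a block it was -0.19 (adjusted p = 0.728), and with the spike-in mean as a covariate -0.13 (adjusted p = 0.825). The control SD of Cpox exceeded that of 97.1% of the brighter genes, and its other 4 controls, unlike those of Alas1, were also spread (SD 0.30 against 0.18).

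The other probe sets of Cpox fell further. On 1422493_at controls were at 8.90, 8.69, 9.25, 7.94 and 9.02 and treated livers at 8, 7.60, 7.36, 7.37 and 7.94. Control replicate 4 fell inside the treated range and the other controls were all above it, with a log2 fold change of -1.11 ± 0.21 (SE; by limma, adjusted p = 0.00579). The dimmest, 1440747_at, went from 5.03 ± 0.50 to 4.07 ± 0.32 (SD, n = 5 each), the latter below the lower quartile of all probe sets (4.16), with a log2 fold change of -0.95 ± 0.22 (SE; by limma, adjusted p = 0.0113). The treated mean minus control replicate 4 was -0.19, -0.29 and -0.49 on the 3 probe sets, from the brightest to the dimmest.

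The Cpox start region (chr16:58669958-58670257, plus strand, GRCm38.p6, RefSeq) is shown because Cpox moved against Alas1. Capitals again mark GATAA on either strand.

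Cpox: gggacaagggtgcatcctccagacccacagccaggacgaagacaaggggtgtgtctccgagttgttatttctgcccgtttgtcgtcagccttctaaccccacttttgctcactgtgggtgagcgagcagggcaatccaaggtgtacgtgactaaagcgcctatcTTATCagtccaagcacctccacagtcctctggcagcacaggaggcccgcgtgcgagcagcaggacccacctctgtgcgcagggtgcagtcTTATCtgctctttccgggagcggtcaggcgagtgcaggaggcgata

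It has 2 matches, with first bases at -86 and at 5 bases from the start site, where the start site is 1. Neither Alas1 window of the table has a match to GATAA, and the Cpox and Alas2 windows have none to GCGCANGCG. Of the 10 windows of the 7 genes that the table holds, CACGTG, the E-box bound by circadian factors among others, matched in 4, from Alad, Uros and Urod. Over all windows CACGTG occurs in 7.2% and TGACNNNGC, the antioxidant response element, in 12.4%; the latter had no match in the 10 windows.

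Ppox and Fech close the chain in the mitochondrion, where Fech inserts iron into the ring. Ppox on its brightest probe set, 1416618_at, was at 8.34, 8.33, 7.88, 8.43 and 8.04 in controls and 8.04, 8.44, 8.46, 8.47 and 8.32 in treated livers. The groups overlapped, with a log2 fold change of 0.14 ± 0.12 (SE, 95% interval -0.107 to 0.391; limma adjusted p = 0.404), and control replicate 4 was again the highest control. Its other probe sets lay below the median of the arrays and gave -0.05 and -0.19. Fech was the steadiest of the 9 in controls, at 11.70 to 11.84 on 1418699_s_at against 11.70 to 11.78 in treated livers. Its log2 fold change was -0.02 ± 0.06 (SE, 95% interval -0.14 to 0.10; limma adjusted p = 0.829). The other 3 Fech probe sets gave log2 fold changes of -0.19, 0.08 and 0.21, none called. The last of these, on 1427696_at, was at 5.05 ± 0.22 in controls, below the median of all probe sets (5.45).

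Hmox1, the inducible haem oxygenase, is read by a single probe set. Controls were at 6.51, 6.82, 6.54, 6.72 and 6.57 and treated livers at 7.18, 7.03, 6.64, 6.80 and 6.72. Treated replicates 1 and 2 were above every control and the other treated livers lay within the control range. The log2 fold change was 0.24 ± 0.10 (SE, 95% interval 0.02 to 0.47) and did not pass (limma adjusted p = 0.118), except after quantile normalisation (0.34, adjusted p = 0.0437). Of 8 known regulators of Hmox1, all measured, limma called none, beside 20.3% of all genes. None of the 8 had an unadjusted p under 0.05, beside 6372 of all 18193 genes. Without control replicate 4 Hif1a, an oxygen-sensing factor, was called lower (-0.36, adjusted p = 0.0135; -0.25 with all animals). Among the others Nfe2l2, the gene of NRF2, had a log2 fold change of 0.02 and the haem-sensing repressor Bach1 of -0.02. Hmox1 is abundant in macrophages, and of 14 measured Kupffer cell and macrophage markers none was higher and 3 were lower. That is 21.4% called, near the 20.3% of all genes, with a median log2 fold change of -0.08 over the list. The mean level of the list was 7.78 to 8.21 in controls and 7.76 to 8.11 in treated livers. The 3 lower markers were Spic, Cd163 and Timd4 (-0.24). Spic, a macrophage factor of haem-iron recycling, went from 5.11 ± 0.08 to 4.81 ± 0.05 (SD, n = 5 each; limma adjusted p = 0.00572), and Cd163, the haemoglobin scavenger receptor, from 7.29 ± 0.25 to 6.55 ± 0.18 (0.00193). Both were called without control replicate 4 as well (-0.29 and -0.71), and with the spike-in sets as a block no marker of the list was called (adjusted p = 0.164 for Spic and 0.121 for Cd163). The part of macrophage content in the Hmox1 values was not tested.

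**Figure D3:**
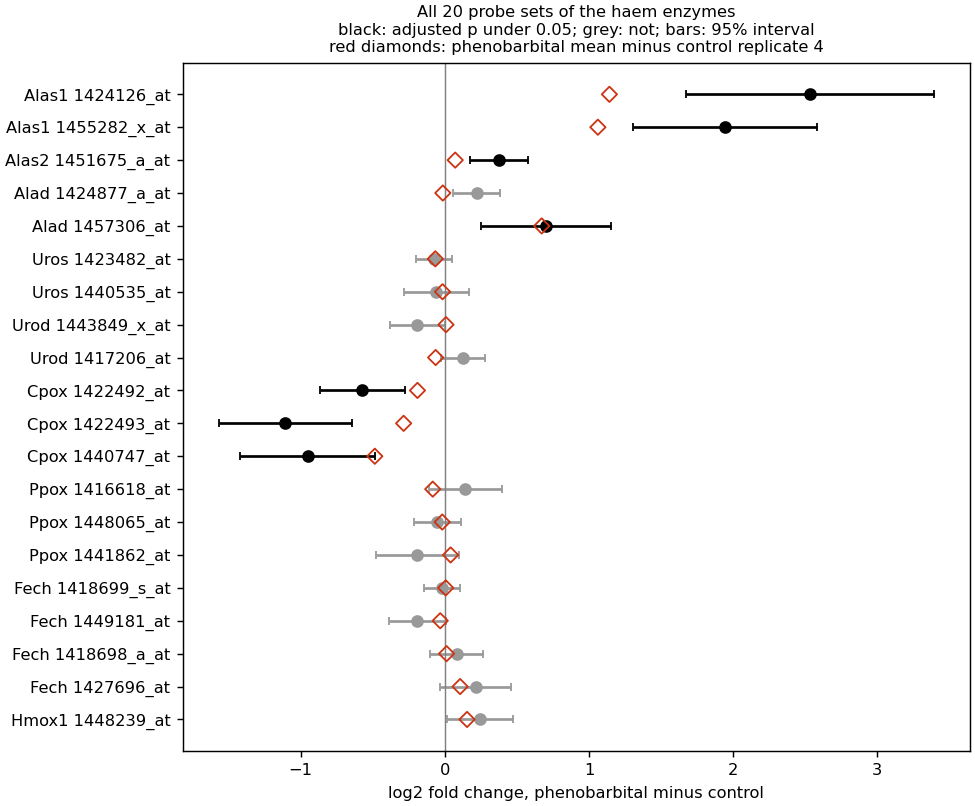
Log2 fold change, phenobarbital minus control (horizontal axis), of all 20 probe sets of the 9 genes, with 95% intervals from limma; black circles passed an adjusted p of 0.05 over all probe sets and grey ones did not. Open diamonds give the treated mean minus control replicate 4, which lies nearer to 0 than the circle for both Alas1 and all 3 Cpox probe sets.

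Other genes of the pathway were read from lists. Of 16 measured genes that serve haem synthesis beside the members, 2 were higher and 1 was lower (median log2 fold change 0.10), which is 18.8% called beside the 20.3% of all genes. Slc25a37, mitoferrin-1, which brings iron into the mitochondrion, was at 7.76 to 8.22 in controls and 8.52 to 8.79 in treated livers. Its log2 fold change was 0.66 ± 0.09 (SE; by limma, adjusted p = 0.000663), and no liver of one group fell in the range of the other. Glrx5, a glutaredoxin of iron-sulphur cluster assembly, rose by 0.35. Clpx, the mitochondrial unfoldase that acts on the aminolevulinate synthases, fell by 0.39 on the log2 scale, from 11.74 to 12.28 in controls to 11.34 to 11.69 in treated livers, a call lost without control replicate 3 (-0.37, limma adjusted p = 0.052). With the spike-in sets as a block the log2 fold changes of these 3 genes were 0.42, 0.34 and -0.43 in the order given, none passing.

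Electron transfer to the P450s had 3 of 9 measured members higher and none lower (median log2 fold change 0.13). That is 33.3% called, beside 20.3% of all genes. Por, the gene of P450 oxidoreductase, and Fdxr were on the list but had no probe set annotated to them alone, so neither was measured. Cyb5r2 and Cyb5r3, reductases of cytochrome b5, rose by 0.57 and 0.31. Cyb5r2 was dim, with a control mean of 5.05, below the median of all probe sets (5.45). Cyb5a, cytochrome b5 itself, rose by 0.17, from 13.92 to 13.99 in controls to 14.09 to 14.17 in treated livers. Cyb5a, near the top of the scale, lost its call in 13 of 20 alternatives, with adjusted p values from 0.00278 to 0.453 over them, while Cyb5r2 (19 alternatives) and Cyb5r3 lost theirs with the spike-in block and covariate alone (0.31 and 0.24 with the block). Of 14 measured genes of haem breakdown, binding and export, Blvrb, biliverdin reductase B, rose by 0.28 and none fell (median -0.03). That is 7.14% called, beside 20.3% of all genes. The Blvrb call was lost in 10 of 20 alternatives (limma adjusted p from 0.0103 to 0.961). Hmox2, the constitutive haem oxygenase, had a log2 fold change of 0.03 and Blvra of -0.09, neither passing. Counted together, 7 of 38 genes of these 3 lists were called (18.4%, near the 20.3% of all genes). The count was 12 without control replicate 4 (31.6%, against 25.3%), 4 without control replicate 3 (10.5%, against 14%), and none with the block. Of 17 measured proteins tied to haem outside the P450s, limma called none (median -0.006). An unadjusted p under 0.05 was found for 4 of the 17, beside 6372 of all 18193 genes. Without control replicate 4 limma called 2 of them, Nos3 higher (0.28, adjusted p = 0.0195) and Hccs lower (-0.31, adjusted p = 0.0227).

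Of the lists around the pathway, the one on iron held the largest called rise. Tfrc, transferrin receptor 1, which takes up transferrin-bound iron, was at 9.01, 8.65, 8.97, 9.49 and 9.25 in controls and 10.33, 10.74, 10.62, 10.67 and 10.71 in treated livers. Every treated liver was well above the highest control, which was control replicate 4. The log2 fold change there was 1.54 ± 0.13 (SE; by limma, adjusted p = 1.45e-05), and 1.12 with the spike-in sets as a block. It was only 0.49 when the Tfrc probe sets were averaged (limma adjusted p = 0.0024). The other Tfrc probe sets therefore shifted less on average than the brightest. Of 14 measured genes of liver iron storage and transport 3 were higher and 3 lower (median -0.13). That is 42.9% called, beside 20.3% of all genes. Hfe, a partner of the transferrin receptors, and Fth1, the ferritin heavy chain, rose by 0.47 and 0.27. Slc40a1, the iron exporter ferroportin, fell by 0.46, Ncoa4, the receptor that delivers ferritin to autophagy, by 0.26 and Tfr2, the second transferrin receptor, by 0.23 on the log2 scale. With the block the values were 0.20 for Hfe, 0.12 for Fth1, -0.27 for Slc40a1, -0.02 for Ncoa4 and -0.24 for Tfr2, none passing. Ncoa4 lost its call in 11 of 20 alternatives and was at -0.07 when its probe sets were averaged. Tfr2 was at -0.06 and not called on single-transcript probe sets (adjusted p = 0.468). Without control replicate 4 these iron genes kept their calls, and Slc39a14 (0.33) and Ireb2 (-0.22) were called in addition. Hamp, the gene of the iron hormone hepcidin, had a log2 fold change of -0.62 with an adjusted p of 0.175.

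**Figure D4:**
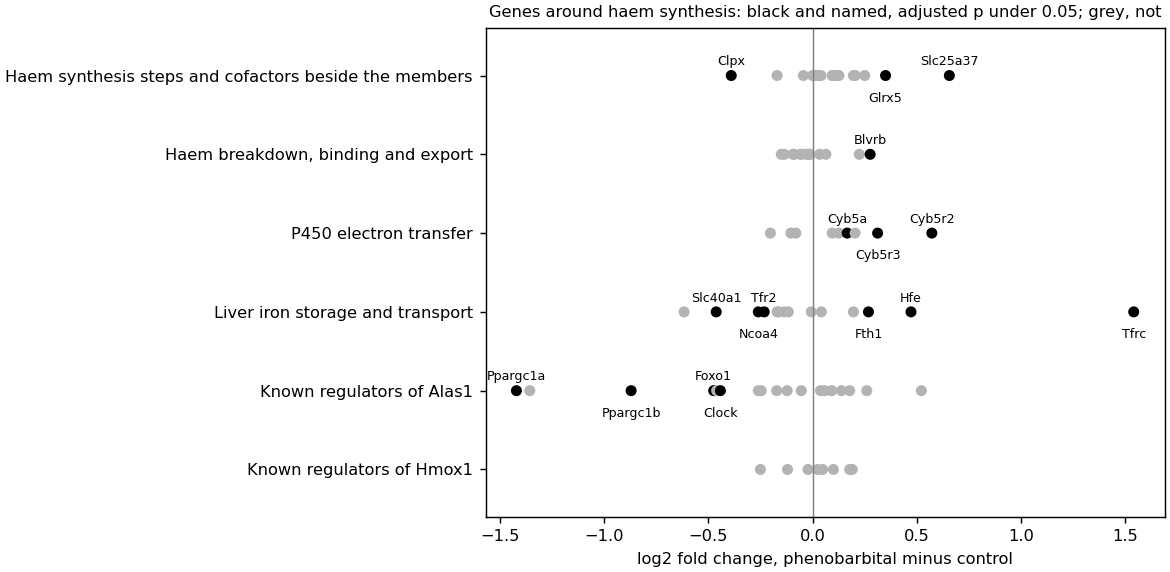
Log2 fold change, phenobarbital minus control (horizontal axis), of each measured gene in 6 lists around haem synthesis (rows); black named points passed an adjusted p of 0.05 in limma over all genes and grey points did not. Tfrc (1.54) lies farthest to the right and Ppargc1a (-1.42) farthest to the left among the named genes.

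The tissue label was checked against markers. Hepatocyte markers were near the top of the scale, with a mean level of 13.99 to 14.04 in controls and 13.90 to 13.99 in treated livers, and 1 of 8 measured was called (Apob, lower). Kidney markers, checked because the extraction protocol mentions kidney, averaged 4.70 to 5.37 in controls and 4.85 to 4.98 in treated livers. None of 8 was called by limma or had an unadjusted p under 0.05, but a test between groups does not address single animals. Control replicate 2 gave the 5.37. It was at 7.76 for Kap (5.41 to 6.13 in the other controls) and 4.36 for Umod (3.15 to 3.32). It was also the highest control for Slc12a1 and Cdh16, but not for Slc34a1, Slc12a3, Aqp2 and Slc22a6. The cause was not tested. Among other cell types, 4 of 7 endothelial markers were lower and 1 higher, and 3 of 8 stellate cell and fibroblast markers were lower. Of 8 leukocyte markers 1 was higher, and of 5 cholangiocyte markers 1 was higher. The shares called were 71.4% (endothelial), 37.5% (stellate), 12.5% (leukocyte) and 20% (cholangiocyte), beside 20.3% of all genes. The mean level of the endothelial list was 7.66 to 8.11 in controls and 7.58 to 7.96 in treated livers, and that of the stellate list 8.50 to 8.76 and 8.12 to 8.49. No marker of any cell type list, red cell markers included, was called by limma with the spike-in sets as a block, and without control replicate 4 the leukocyte marker Ptprc was called lower in addition (-0.32, adjusted p = 0.0448). The part of these shifts in the members' values was not tested.

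**Figure D5:**
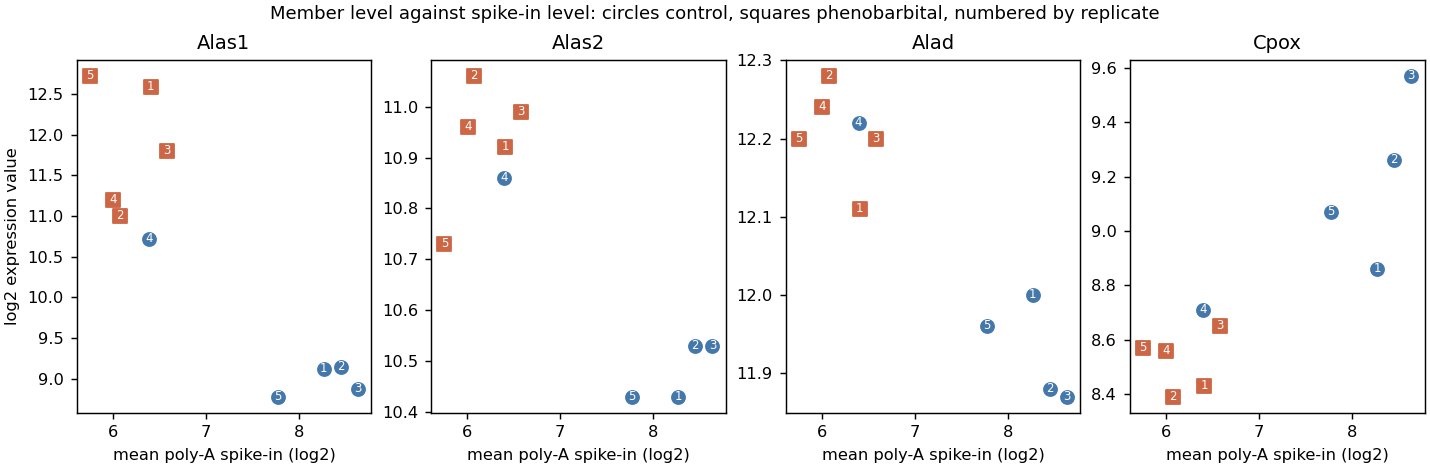
Log2 expression value of Alas1, Alas2, Alad and Cpox (vertical axes, not starting at 0) against the mean poly-A spike-in value of the same array (horizontal axis, log2), with controls as circles and treated livers as squares, numbered by replicate. Control replicate 4 (spike-in mean 6.40) lies with the treated arrays on the horizontal axis, and in each panel it is the control nearest to the treated livers or among them.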

How the data were processed

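Total RNA of 10 livers, each from a separate animal per the labels, was labelled with biotin by 3' in vitro transcription and hybridised to Affymetrix arrays, per the labels' protocols. The array software was GCOS, per the submitters' processing notes. The authors deposited log2 values (2.34 to 15.13; the scale was read from this range), and the sources used here do not give how probes were summarised or normalised. Quartiles differed by at most 0.16 between arrays, and the values were used as deposited. The upper quartile separated the groups, at 7.39 to 7.46 in control arrays and 7.30 to 7.36 in treated arrays. The number of arrays limits the precision.

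Of 45101 probe sets 64 were controls, 34945 had 1 gene symbol, 932 several and 9160 none in the platform annotation. The RefSeq table (GRCm38.p6), matched by gene ID for 34741, changed no symbol. Each gene was read from its brightest probe set. limma 3.58.1 in R 4.3.3 compared the groups (two-sided, Benjamini-Hochberg); a second fit took all probe sets singly. The highest correlation between arrays was 0.997. The fit was tested on simulated data. Promoter windows came from RefSeq. Figures used matplotlib 3.10.9 in Python 3.11.15.

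The members and lists were chosen with earlier results of these data known. Named are the members, up to 6 called genes of each list, and the 5 genes most like Alas1; other genes were named after their values were seen. Alternatives were quantile normalisation, median centring, brighter genes only, the mean of probe sets, single-transcript probe sets, weighted arrays, trended and robust variance, the replicate number, the spike-in set or the spike-in mean in the model, and leaving out each animal.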

Additional observations from a re-analysis of the deposited data

Results flagged for a closer look

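In 7 of 74 groups of 5 tested (the 20 member probe sets and the named neighbours), 1 animal lay far from the other 4 for the range of its group, which chance gives in about 1 in 20 groups. Control replicate 4 was such an animal for Alas1 (10.72 on 1424126_at, against 8.78 to 9.14 in the other controls), for Alas2 (10.86, against 10.43 to 10.53) and for Ncoa4 (10.65, against 10.91 to 11). In all 3 genes its value lay on the side of the treated livers. Among treated livers, replicate 1 was low for Fech on 1418698_a_at (10, against 10.30 to 10.40). Treated replicate 5 was low for Clpx (11.34, against 11.62 to 11.69) and high for Cyb5a (14.17, against 14.09 to 14.11), and treated replicate 2 was high for Fth1 (14.40, against 14.31 to 14.32). The causes were not tested.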

How the results depend on the processing

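Of 20 alternatives, Alas1, Alas2 and Cpox kept their direction in all and their call in 18. The exceptions were the spike-in set as a block (Alas1 1.14, Alas2 0.072, Cpox -0.19) and a covariate of the spike-in mean (1.33, 0.17 and -0.13). With 1 animal left out, Alas1 ranged from 2.32 to 2.88, Alas2 from 0.34 to 0.45 and Cpox from -0.67 to -0.46. Alad passed after quantile normalisation (0.217), median centring (0.25), in brighter genes alone (0.22), with probe sets averaged (0.46), trend and robust variance (0.22) and array weights (0.26), ranged from 0.19 to 0.28 with 1 animal left out, and turned with the block (-0.014) and the covariate (-0.026). Hmox1 passed after quantile normalisation (0.34). Small uncalled values turned sign: Urod on single-transcript probe sets (0.13), with the block (0.008) and the covariate (0.048); Ppox with probe sets averaged (-0.034), the block (-0.084) and the covariate (-0.086); Fech after median centring (0.014), with probe sets averaged (0.0215), the block (0.006) and the covariate (0.036). Uros kept its sign and stayed uncalled in all 20.

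Of the 9 genes, 5 were called after quantile normalisation, 0 with the block or the covariate, and 3 to 4 with 1 animal left out; of the 20 probe sets, 0 with the block or covariate and 6 to 8 with 1 animal left out. The neighbours' 7 calls became 11 with the mean of probe sets, 13 with array weights, 0 with the block or covariate, and 4 to 12 with 1 animal left out. Over all genes the 3692 calls became 143 with the block, 129 with the covariate, and 2431 to 4610 with 1 animal left out, lowest without phenobarbital replicate 2 (2431) and control replicate 2 (2460). Quantile normalisation and median centring moved the median of all genes by 0.03. The cause of these changes was not tested.

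The labels do not say that the replicate number pairs the animals. Deviations of same-numbered animals correlated between -0.02 and 0.12, which cannot settle whether they were paired. With the replicate block 3 members and 3664 genes were called (Alas1 2.53, limma adjusted p = 0.00486), and 2 of 5 controls correlated best with their own number. Among the members and the called genes of the pathway, iron and Alas1 regulator lists, the block changed the call of Cyb5a alone. The values give no detection calls, so levels near the lower quartile may be background, and the spike-in block rests on 1 control, whose own spread it cannot show.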
